A study of Mus musculus with 2 samples.

Results

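The apolipoproteins described here are Apoa1, Apoa2, Apoa4, Apob, Apoc1, Apoc2, Apoc3, Apoc4, Apom and Apoh, 10 of the 32285 features in both count matrices, chosen by symbol. They were followed in tumour cells of mouse liver tumours profiled by droplet single-cell RNA sequencing, in which each captured transcript is counted once through its unique molecular identifier (UMI). The series title names hepatocellular carcinoma and asks how targeting the splicing factor Srsf10 shapes tumour immunity. There was 1 library from tumours labelled shCtrl, with the genotype label WT, and 1 library from tumours labelled shSrsf10, which carry, by that name, a short hairpin RNA against Srsf10. Strain, age, number of animals pooled, the promoter of the hairpin and the cell that carries it are not given in the sources used here. The labels differ on the assay: the series text names a 5' kit and a flow cytometry sort without its gate, and the sample protocol a 3' kit and a slow spin that leaves most hepatocytes behind.

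Apolipoproteins are the protein part of lipoproteins, the particles that carry cholesterol and triglyceride through blood. Apob is the scaffold protein of very low density lipoprotein, and Apoa1 and Apoa2 form high density lipoprotein. The small C-type members exchange between particles and set how fast triglyceride is hydrolysed. The liver makes most of them, and they are widely used as signs of hepatocyte identity in liver tumours. Coordinates are GRCm38 in GENCODE vM21. Apoc2, Apoc4 and Apoc1 lie on the - strand within 27.61 kb of chromosome 7 (chr7:19671579-19699188) that also hold Apoe, and Apoa1, Apoc3 and Apoa4 within 14.88 kb of chromosome 9 (chr9:46228580-46243459). Apoa2 lies on chromosome 1 (chr1:171225054-171226379), Apob on 12 (chr12:7977648-8016835), Apoh on 11 (chr11:108343354-108414396) and Apom on 17 (chr17:35128997-35132050). Among annotated genes that are also in the files, Apoa4 overlaps Gm10680 and Apoh overlaps Prkca, both on the opposite strand, and Apoh also overlaps Gm11656 on its own strand, so counts of Apoh could be split with Gm11656.

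Sequences directly upstream of 4 members are shown because these members had the most unlike patterns over cells. Few cells held most UMIs of Apoa1 and Apoa2, and nearly all cells held Apoc4. Apoc2 was higher in cells with at least 5 Tff2 UMIs. They come from the RefSeq promoter table (GRCm38.p6), 5' to 3' on the strand of the gene, without bases that any GENCODE exon covers. Capitals mark TGTTTNC, a forkhead factor motif, or AGGTCA, a nuclear receptor hexamer, on either strand.
Apoa1 (chr9:46228380-46228579, + strand): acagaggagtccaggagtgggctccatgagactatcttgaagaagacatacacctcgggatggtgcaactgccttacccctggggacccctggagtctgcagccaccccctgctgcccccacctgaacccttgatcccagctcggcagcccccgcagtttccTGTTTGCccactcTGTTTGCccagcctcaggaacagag
Apoa2 (chr1:171224804-171225053, + strand): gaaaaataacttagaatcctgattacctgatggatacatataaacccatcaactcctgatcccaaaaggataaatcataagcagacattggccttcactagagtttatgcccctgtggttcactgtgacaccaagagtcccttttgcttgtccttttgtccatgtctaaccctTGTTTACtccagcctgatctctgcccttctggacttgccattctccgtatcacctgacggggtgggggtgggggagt
Apoc2 (chr7:19677942-19678082, - strand): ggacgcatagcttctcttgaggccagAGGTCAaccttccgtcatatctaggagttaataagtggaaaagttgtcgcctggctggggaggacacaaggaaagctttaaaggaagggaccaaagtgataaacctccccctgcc
Apoc4 (chr7:19681480-19681710, - strand): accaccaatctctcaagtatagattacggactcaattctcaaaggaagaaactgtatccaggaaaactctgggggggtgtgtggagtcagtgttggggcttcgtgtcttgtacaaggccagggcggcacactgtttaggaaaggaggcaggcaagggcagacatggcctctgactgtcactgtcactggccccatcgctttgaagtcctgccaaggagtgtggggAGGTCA
The table held 8 of the 10 members. The table gives 250 bases before the RefSeq start. For all but Apoa2 and Apoc2, part or all of this window lies inside the GENCODE gene. The longest stretch of the Apom window outside exons was 1 base, so its match reaches into an exon. The Apoh matches lie inside the gene but outside exons. In these windows TGTTTNC was found in 5 of 8 (Apoa1, Apoa2, Apob, Apom and Apoh) and in 17.8% of all 32851 windows of that length. AGGTCA was found in 3 of 8 (Apoc2, Apoc4 and Apoh) and in 14.0% of all windows. TTGCNNAA, a C/EBP motif, was found in Apob, which also holds TGTTTNC, and in 9.56% of windows. Matches were counted per motif on both strands, and matches of different motifs may overlap. A match says only that these letters are present.

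A tumour barcode had at least 5000 UMIs, at least 5 UMIs of the keratins Krt8 and Krt18 together and 0 of the leukocyte gene Ptprc. There were 6462 such barcodes of 9920 in shCtrl and 3765 of 7553 in shSrsf10, with a median of 18174.5 and 27498 UMIs and a total of 134144973 and 118239156 UMIs. The hairpin target Srsf10 was at 45.5 CPM (UMIs per 1000000 UMIs of these barcodes) in shCtrl and 19.7 CPM in shSrsf10, a log2 ratio of shSrsf10 over shCtrl of -1.21 (-1.28 to -1.14). Every interval given is at 95% and covers counting error only. With 1 library per group no test was possible, and differences between animals or preparations cannot be told apart from the hairpin. Genes the rule did not use were also read in the tumour barcodes. All 8 listed hepatocyte and hepatoma genes were above 1 CPM in both libraries, among them Afp at 1604 and 1114 CPM and Hnf4a at 35.8 and 24.3 CPM. The same 8 were above 1 CPM in the T barcodes of both libraries, defined below, so this cutoff cannot test the tumour label. In T barcodes with few keratin UMIs, Afp was at 162 and 37.6 CPM and Hnf4a at 5.87 and 1.20 CPM. Of 7 listed genes of mature hepatocytes only the urea cycle gene Ass1 was above 1 CPM in tumour barcodes, at 11.5 and 19.8 CPM. It was higher in T barcodes with few keratin UMIs, at 43.5 and 71.8 CPM. Of 6 listed bile duct genes 5 were above 1 CPM in tumour barcodes. In the T barcodes of both libraries 5 were too, so this count cannot test the tumour label either. Krt7 was at 241 and 295 CPM, Sox9 at 113 and 91.8 CPM and Cftr at 0 and 0.05 CPM. Of the epithelial genes outside the rule, Krt19 was at 359 and 391 CPM and Epcam at 82.0 and 57.3 CPM. Cldn4 was at 138 and 148 CPM and the cadherin Cdh1 at 0.15 and 0.19 CPM. Summed T cell markers were at 5.86 and 21.8 CPM, summed fibroblast markers at 9.56 and 69.9 CPM (Dcn 8.41 and 67.3 CPM), and summed macrophage markers at 20.6 and 13.6 CPM. Without the 80 shCtrl and 101 shSrsf10 tumour barcodes that also meet an immune rule, the ratios of Apoa1, Apoa2 and Apoc3 were -0.89, -1.24 and -1.39. The part of fibroblast RNA was not tested. Of all barcode sequences 67 occurred in both libraries, 43 of them among the shCtrl and 32 among the shSrsf10 tumour barcodes.

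Summed over the 10 genes, tumour barcodes held 1976 CPM of apolipoproteins in shCtrl and 1698 CPM in shSrsf10, a log2 ratio of -0.22 (-0.23 to -0.21). Most of this came from the chromosome 7 genes Apoc1, Apoc2 and Apoc4, at 1601 and 1473 CPM together. UMIs mark transcripts without scaling to length, so the values are compared between cells and libraries for 1 gene at a time. Over all tumour barcodes 4 of 10 members were at least 1.5-fold lower in shSrsf10 (Apoa1, Apoa2, Apoc3 and Apom), 1 was at least 1.5-fold higher (Apoa4) and 5 lay between. Of the 13336 genes with at least 50 UMIs over both libraries, 11.3% were lower and 7.45% higher by the same fold. The median log2 ratio was -0.31 over the members and -0.06 over all genes. Without the 1% of barcodes with the most Apoa1 UMIs in each library, Apoa1 stood at -0.54, Apoa2 at -0.57 and Apom at -0.51, all inside 1.5-fold, and Apoc3 at -1.83.

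**Figure D1:**
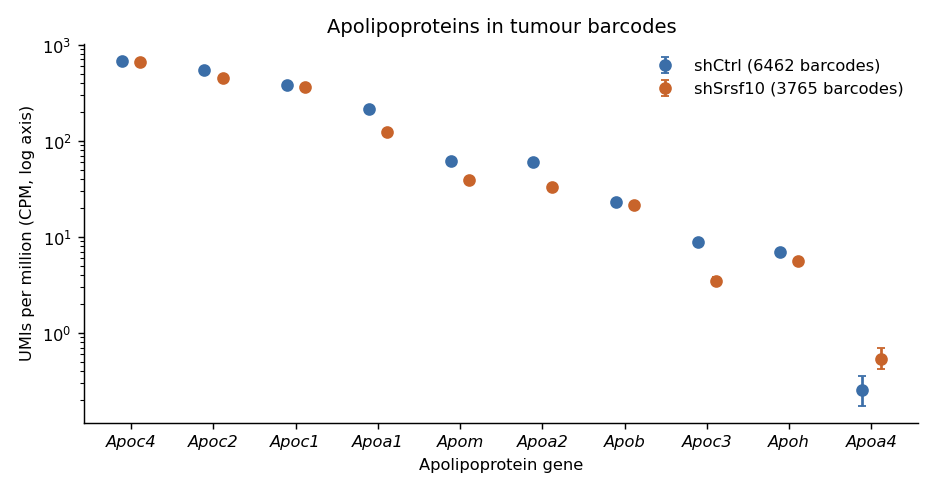
Level of each apolipoprotein in tumour barcodes as CPM on a log axis, with exact Poisson intervals that are mostly smaller than the points; blue is shCtrl and orange shSrsf10. Apoc4 sits at 667 and 663 CPM, while Apoa1 sits at 215 and 122 CPM and Apoc3 at 8.79 and 3.48 CPM; genes are placed by their shCtrl level for reading only.

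Among the genes of high density lipoprotein, Apoa1, its main structural protein and the activator of the enzyme Lcat, was at 215 CPM (213 to 218) in shCtrl and 122 CPM (120 to 124) in shSrsf10. Its log2 ratio was -0.81 (-0.84 to -0.78), and 5.04% of all genes had a lower ratio. Apoa2, the second structural protein of these particles, was at 60.6 and 32.7 CPM, a log2 ratio of -0.89 (-0.95 to -0.84). Apom, which carries sphingosine 1-phosphate on the particle, was at 60.8 and 38.9 CPM, a log2 ratio of -0.65 (-0.70 to -0.59). All 3 were lower in the shSrsf10 library. Apoa4, in other settings a gene of intestine and lipid-loaded liver, had 34 UMIs in shCtrl and 64 in shSrsf10, or 0.253 and 0.541 CPM, a log2 ratio of 1.09 (0.47 to 1.74). Of the 64 UMIs, 38 (59.4%) were in 1 barcode, and without the barcode with the most Apoa4 in each library the ratio was 0.08 (-0.75 to 0.90).

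Among the genes of triglyceride-rich particles, Apob, the scaffold of very low density lipoprotein, was at 23.1 and 21.5 CPM, a log2 ratio of -0.10 (-0.18 to -0.03). Apoc2, the cofactor that activates lipoprotein lipase, was at 550 and 449 CPM, a log2 ratio of -0.29 (-0.31 to -0.28). Apoc3, which slows triglyceride hydrolysis and particle uptake, was at 8.79 CPM (8.29 to 9.31) and 3.48 CPM (3.16 to 3.84). Its log2 ratio of -1.33 (-1.50 to -1.17) was the lowest of the 10, and 1.22% of all genes had a lower one. Without the barcode with the most Apoc3 in each library it was -1.76. Apoc1, known to inhibit lipoprotein uptake and the transfer protein CETP in humans, was at 383 and 361 CPM, a log2 ratio of -0.08. Apoc4, a little studied C apolipoprotein, was at 667 and 663 CPM, and its interval of -0.02 to 0.00 included no difference. Apoh, a plasma glycoprotein that binds anionic phospholipids, was at 6.96 and 5.54 CPM, a log2 ratio of -0.33 (-0.47 to -0.18).

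The 2 gene clusters thus held members with unlike ratios. On chromosome 7, Apoc1, Apoc2 and Apoc4 summed to a log2 ratio of -0.12, and their neighbour Apoe, the ligand for hepatic particle uptake, was at 7440 and 4573 CPM with a ratio of -0.70. On chromosome 9, Apoa1, Apoa4 and Apoc3 summed to 224 and 126 CPM, a ratio of -0.83. Apoa1 made up most of this sum, with 28856 of 30069 UMIs in shCtrl and 14470 of 14946 in shSrsf10. Apoc3 was at -1.33 and Apoa4 at 1.09. Albumin, the main plasma protein of hepatocytes, was at 2208 and 1598 CPM, a ratio of -0.47, in the same barcodes.

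How many cells held each member differed greatly. To set depth aside, each tumour barcode was thinned to 5000 UMIs. Apoc4 was then seen in 89.8% of shCtrl and 89.5% of shSrsf10 barcodes, Apoc1 in 68.5% (67.3 to 69.6) and 64.2% (62.7 to 65.8), and Apoc2 in 53.7% and 52.4%. Apoa1 was seen in 18.1% (17.2 to 19.1) and 13.6% (12.5 to 14.7), and Apom in 14.1% (13.3 to 15.0) and 11.1% (10.1 to 12.1). The shares of Apoa1, Apom, Apoc1 and Apoc3 were lower in shSrsf10, with intervals that did not overlap. T barcodes with few keratin UMIs held Apoa1 at 0.105 UMIs per barcode in shCtrl and 0.019 in shSrsf10, and the part of such free RNA in these shares was not tested. Apob was seen in 9.89% and 9.40%, Apoa2 in 7.196% and 6.03%, Apoh in 2.20% and 2.34%, Apoc3 in 1.75% (1.44 to 2.10) and 0.903% (0.626 to 1.26), and Apoa4 in 0.155% and 0.0797%. Without thinning, the shares were 36.4% and 29.2% for Apoa1, 30.9% and 30.0% for Apom, 22.5% and 21.0% for Apoa2, 27.9% and 36.5% for Apob, 77.4% and 83.6% for Apoc2, 89.4% and 90.9% for Apoc1, and 97.7% and 98.2% for Apoc4. For Apob, Apoc1, Apoc2 and Apoc4 the order of the libraries was the reverse of that after thinning, where only the intervals of Apoc1 did not overlap among these 4.

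A small number of cells carried most of the Apoa1, Apoa2, Apoc3 and Apoh transcripts. In shCtrl 48 of 6462 tumour barcodes held 50% of all Apoa1 UMIs, and in shSrsf10 44 of 3765 did. The 1% of barcodes with the most UMIs of a gene held 56.9% of Apoa1 in shCtrl and 47.4% in shSrsf10. For Apoa2 this was 78.2% and 73.5%, for Apoc3 76.9% and 82.5%, for Apoh 56.8% and 56.5%, and for Apom 37.4% and 31.0%. It was 21.2% and 23.0% for Apoc2, 14.0% and 11.2% for Apob, 8.58% and 9.18% for Apoc1, and 4.34% and 4.37% for Apoc4. In shCtrl 12 barcodes held 50% of Apoa2 and 16 held 50% of Apoc3, and in shSrsf10 6 and 4 did.

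**Figure D2:**
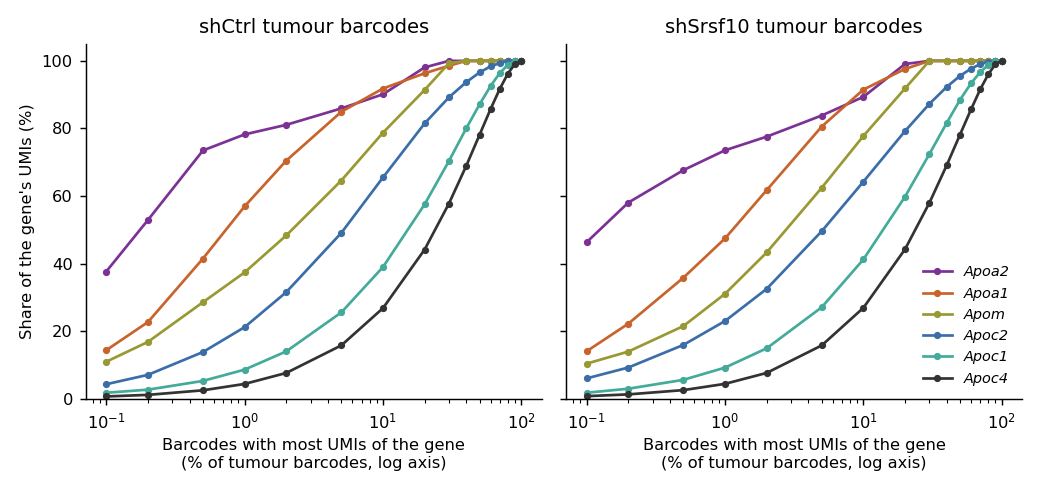
Share of a gene's UMIs (vertical axis, %) held by the tumour barcodes with the most UMIs of that gene (horizontal axis, % of tumour barcodes, log axis), for 6 apolipoproteins in shCtrl (left) and shSrsf10 (right). The top 1% of barcodes hold 78.2% and 73.5% of Apoa2 but 4.34% and 4.37% of Apoc4.

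Barcodes with at least 10 Apoa1 UMIs numbered 353 in shCtrl and 251 in shSrsf10, and held 86.0% and 85.8% of all Apoa1 UMIs. Their Apoa1 level was 2559 and 1223 CPM. With thinned barcodes, which removes the difference in depth, 2.10% (1.77 to 2.48) of shCtrl and 1.46% (1.10 to 1.90) of shSrsf10 tumour barcodes still had at least 10 Apoa1 UMIs, with a mean of 30.7 and 23.1 UMIs in each. Other members were also higher in these barcodes than in those without Apoa1. Apoa2 was at 653 against 12.6 CPM in shCtrl and 289 against 7.24 CPM in shSrsf10. Apoc3 was at 103 against 1.08 CPM and 36.2 against 0.26 CPM, and Apoh at 68.2 against 1.43 CPM and 43.1 against 1.38 CPM. Apoc2 was at 2475 against 311 CPM and 1832 against 248 CPM, and Apom at 333 against 31.8 CPM and 185 against 17.7 CPM. Apoc4 differed less, at 794 against 643 CPM and 797 against 620 CPM. The fetal liver protein Afp was also higher, at 2909 against 1428 CPM and 1878 against 958 CPM. Of the 7 mature hepatocyte genes, Ass1 was at 10.6 against 11.4 CPM and 14.3 against 21.98 CPM. Cyp3a11 was at 8.66 against 0.15 CPM and 6.50 against 0.04 CPM, with a UMI in 8.78% and 5.18% of the barcodes with at least 10 Apoa1 UMIs, and 29 and 20 of its 66 shSrsf10 UMIs there in 2 barcodes. The other 5 were under 6 CPM there. Mup3 was at 5.36 against 0.22 CPM and 4.14 against 0.04 CPM, with a UMI in 0.567% and 1.20% of the barcodes with at least 10 Apoa1 UMIs. Cps1 was at 1.24 against 0.09 CPM and 0.79 against 0.03 CPM. G6pc was at 1.55 against 0 CPM and 0.20 against 0.03 CPM. Cyp2e1 was at 0.21 against 0.05 CPM and 0 against 0.06 CPM, and Cyp2c29 had 0 UMIs there in both libraries. These groups were formed on Apoa1 itself and hold deeper barcodes, with a median of 24395 against 16664 UMIs in shCtrl and 35732 against 25494 in shSrsf10, so the values are a description.

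Barcodes with at least 10 Apoa2 UMIs were mostly part of the same set. Of 48 such barcodes in shCtrl 41 also had at least 10 Apoa1 UMIs, as did 29 of 32 in shSrsf10. The shCtrl barcode with the most Apoa2 held 638 UMIs of it, beside 326 of Apoa1, 292 of Apoc2 and 0 of Apoc3. In shSrsf10 the highest held 881 Apoa2, 820 Apoa1 and 1132 Apoc2 UMIs among 102055 UMIs in all, and the next 554 Apoa2, 284 Apoa1 and 534 Apoc2 UMIs among 29258. The first of these also had 3 C1q UMIs and so met the macrophage rule given below. By contrast, the barcode with the most Apoc3 in shSrsf10 held 133 UMIs of it with 15 of Apoc2, 14 of Alb and 0 of Afp.

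Tff2, a trefoil peptide of mucous and ductal epithelium, divides these tumour cells, and its own level was 275 CPM in shCtrl and 624 CPM in shSrsf10. Tumour barcodes with at least 5 Tff2 UMIs numbered 1158 of 6462 in shCtrl and 1675 of 3765 in shSrsf10. In shCtrl, 5 of 9 measured members were at least 1.5-fold lower in these barcodes than in the rest (Apoa1, Apoa2, Apoc3, Apom and Apoh), where 5.32% of all genes were, and 1 was higher (Apoc2), where 3.54% of all genes were. In shSrsf10, 4 of 10 were lower (Apoa4, Apoc3, Apom and Apoh), with 4.8% of all genes, and 2 higher (Apob and Apoc2), with 3.6%. The value of Apoa4 there rests on 1 barcode with 38 of its UMIs and 0 of Tff2. Without the barcode with the most Apoa4 in each library it had 14 and 12 UMIs, a ratio of -0.07 (-1.29 to 1.17), and 3 members were lower. Deeper barcodes reach 5 Tff2 UMIs more easily, and the median was 24413 against 17119 UMIs in shCtrl and 34476 against 22569 in shSrsf10. The part of depth was not tested beyond the use of CPM.

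Apoc2 was higher in the Tff2 barcodes, at 955 against 422 CPM in shCtrl and 577 against 292 CPM in shSrsf10, log2 ratios of 1.18 (1.16 to 1.20) and 0.98 (0.95 to 1.01). Apob was higher by less, at 29.5 against 21.0 CPM and 25.4 against 16.7 CPM, ratios of 0.49 and 0.61. Apoc3 was lower, at 2.94 against 10.6 CPM and 1.38 against 6.05 CPM, ratios of -1.86 and -2.13. In shSrsf10 133 of its UMIs were in 1 barcode with 0 Tff2 UMIs, and without the barcode with the most Apoc3 in each library the ratios were -1.70 and -1.36, from 1.38 against 3.56 CPM in shSrsf10. Apom was also lower, at 29.3 against 70.8 CPM and 24.98 against 55.9 CPM, ratios of -1.28 and -1.16. Apoh stood at -1.04 and -1.14 on the same scale. For these 5 genes both libraries thus gave the same direction. Apoc1, at -0.36 and -0.53, and Apoc4, at -0.15 and -0.22, stayed within 1.5-fold. The sum of all 10 was nearly level, at 0.13 in shCtrl and 0.00 in shSrsf10.

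Apoa1 and Apoa2 differed between the libraries in this respect. Apoa1 was at 141 CPM in the Tff2 barcodes against 239 CPM in the rest of shCtrl (-0.76), and at 118 against 128 CPM in shSrsf10 (-0.13). Apoa2 was at 24.8 against 71.9 CPM in shCtrl (-1.54), and at 33.0 against 32.3 CPM in shSrsf10 (0.03). The level of Apoa2 in shSrsf10 rests on the 2 barcodes described above, which held 7 and 6 Tff2 UMIs, just over the limit of 5. Without the 2 barcodes with the most Apoa2 in each library, Apoa2 was at 10.95 against 32.3 CPM in shSrsf10, a ratio of -1.56, and at -1.28 in shCtrl. Apoa1 then stood at -0.35 and -0.72. Between the libraries over all tumour barcodes, Apoa2 was at -1.33 without them.

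**Figure D3:**
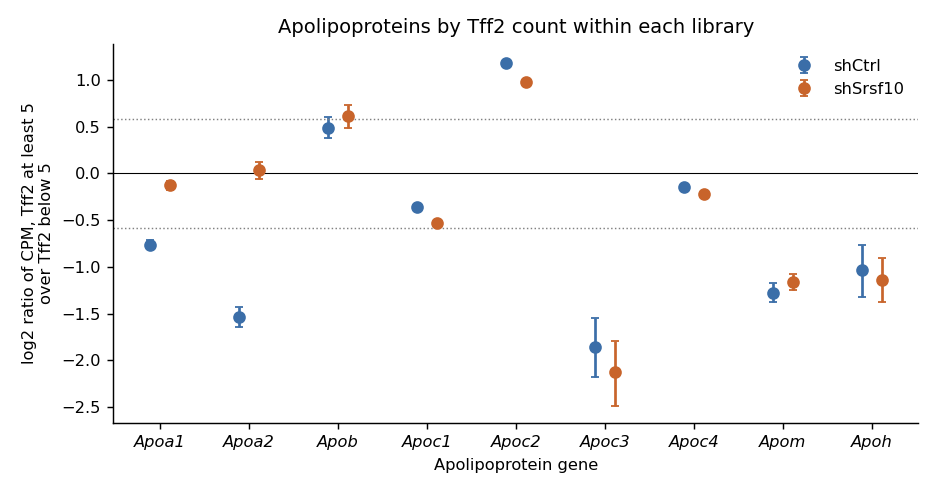
Log2 ratio of CPM in tumour barcodes with at least 5 Tff2 UMIs over those with fewer, for 9 apolipoproteins in shCtrl (blue) and shSrsf10 (orange), with exact intervals; dotted lines mark 1.5-fold. Apoc2 is the highest in both libraries at 1.18 and 0.98, and Apoa2 differs most between them, at -1.54 and 0.03.

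Because Tff2 barcodes made up more of the shSrsf10 tumour cells, the libraries were compared again within each Tff2 group. Among barcodes with at least 5 Tff2 UMIs, 2 of 9 measured members were lower in shSrsf10, where 9.91% of all genes were. They were Apoc2, at 955 CPM in shCtrl and 577 CPM in shSrsf10 (-0.73), and Apoc3, at 2.94 and 1.38 CPM (-1.09). The share of all genes that were higher was 5.98%, and 0 members were. Apoa1 was at -0.26, Apom at -0.23 and Apoa2 at 0.41, the reverse of its direction over all tumour barcodes. Without the 2 barcodes with the most Apoa2 in each library, Apoa2 was at 10.95 against 24.8 CPM, a ratio of -1.18, and Apoa1 at -0.48. Among barcodes with fewer than 5 Tff2 UMIs, 3 of 10 members were lower, where 10.5% of all genes were: Apoa1 (-0.90), Apoa2 (-1.16) and Apoc3 (-0.81, or -1.43 without the barcode with the most Apoc3 in each library). Apoa4 was higher there (1.54), as were 6.46% of all genes, but at -0.23 (-1.35 to 0.80) without the barcode with the most Apoa4 in each library. Apoc1 turned to 0.10 (0.08 to 0.13). With fewer than 5 Tff2 UMIs Apoc2 was within 1.5-fold, at 422 CPM in shCtrl and 292 CPM in shSrsf10 (-0.53). Its ratio over all tumour barcodes, -0.29, was thus nearer to no difference than in either Tff2 group. Apom, lower by 1.5-fold over all tumour barcodes, was within that fold in both groups, at -0.23 and -0.34. Apoc4 stood at 0.00 and 0.08.

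**Figure D4:**
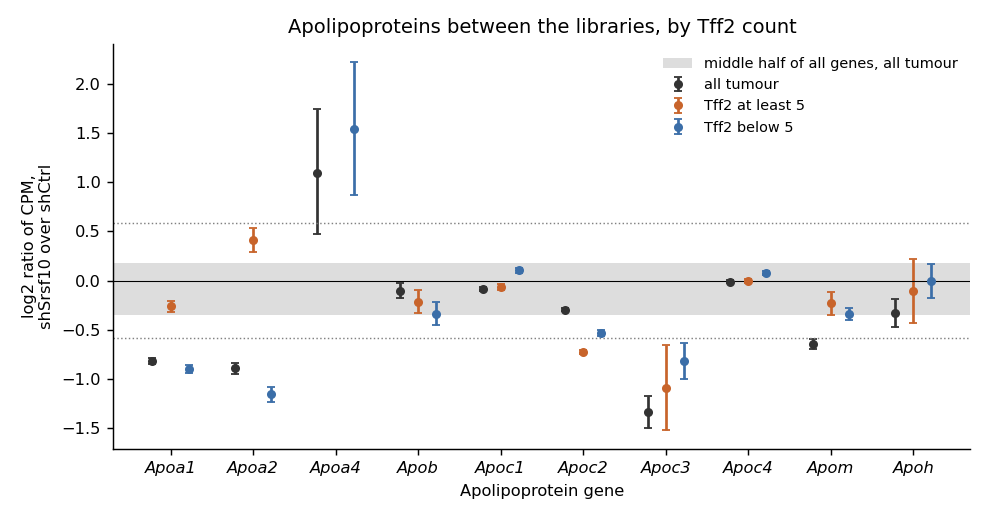
Log2 ratio of CPM in shSrsf10 over shCtrl for all tumour barcodes (black), those with at least 5 Tff2 UMIs (orange) and those with fewer (blue), with exact intervals; the grey band holds the middle 50% of all genes over all tumour barcodes, -0.35 to 0.18, and dotted lines mark 1.5-fold. Apoc3 is below the lower line in all 3 sets, and Apoa2 is at 0.41 in the orange set.

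Droplets also catch RNA that is free in the suspension, so the members were read in immune barcodes too. These were T barcodes (at least 2 UMIs of Cd3d, Cd3e and Cd3g), neutrophil barcodes (S100a8 and S100a9 at 1% of UMIs or more) and macrophage barcodes (at least 3 UMIs of C1qa, C1qb and C1qc). They numbered 386, 160 and 494 in shCtrl and 2107, 301 and 180 in shSrsf10. Some also held keratin, as did 402 of the 2107 shSrsf10 T barcodes, with at least 2 UMIs of Krt8 and Krt18. In the whole T set the summed members reached 38.6% of the tumour CPM in shCtrl and 48.2% in shSrsf10, and in the whole shSrsf10 macrophage set 97.9% of the 904 Apoa1 UMIs were in 5 barcodes. The values below are from barcodes with fewer than 2 keratin UMIs, 306 T, 139 neutrophil and 357 macrophage barcodes in shCtrl and 1705, 282 and 130 in shSrsf10.

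In these T barcodes the summed members were at 220 CPM in shCtrl and 58.4 CPM in shSrsf10, 11.1% and 3.44% of the tumour level. Per barcode this was 0.61 and 0.20 UMIs, against 41.0 and 53.3 UMIs in a tumour barcode. Apoc4 was at 7.57% of its tumour CPM in shCtrl and 3.08% in shSrsf10, Apoc2 at 7.04% and 2.99%, and Alb at 8.72% and 3.67%. Apoa1 was at 17.5% (11.9 to 24.7) and 4.63% (3.19 to 6.51), and Apoa2 at 42.6% (26.7 to 64.6) and 13.1% (8.49 to 19.4). The shCtrl T barcodes thus held more apolipoprotein RNA, per barcode and as CPM. Thinned to 1000 UMIs, 6.61% of shCtrl tumour and 5.64% of T barcodes had an Apoa1 UMI, and 2.31% and 2.63% an Apoa2 UMI, with overlapping intervals for both genes. In shSrsf10 they were 6.06% and 0.734% for Apoa1 and 1.62% and 0.49% for Apoa2. Unthinned, 36.4% of shCtrl tumour and 9.48% of T barcodes had an Apoa1 UMI, at median depths of 18174.5 and 1877 UMIs. No T barcode held more than 2 Apoa1 or 5 Apoa2 UMIs in shCtrl. Subtracting the T level per barcode from the tumour barcodes left the ratio between the libraries at -0.79 for Apoa1 and -0.83 for Apoa2.

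Apoc1 did not follow this pattern in macrophages, and it was not the only such member. In shCtrl macrophage barcodes Apoa2, Apoc3 and Apoh were also above their tumour CPM, on far fewer UMIs, as given under other observations. The interval of Apoh included no difference. Apoc1 was at 561 CPM in shCtrl macrophage barcodes, 146% (134 to 160) of the tumour CPM, beside 8.36% for Apoc4, 20.3% for Apoc2 and 14.5% for Alb. It was at 71.1 CPM, 19.7% (13.8 to 27.1), in shSrsf10, beside 2.61% for Apoc4. Kupffer cells are macrophages that live in the liver sinusoids, and their 4 listed genes (Clec4f, Cd5l, Vsig4 and Timd4) summed to 471 CPM in all shCtrl macrophage barcodes and 52.2 CPM in those of shSrsf10. Split by these genes, 77 shCtrl macrophage barcodes with at least 2 of their UMIs held Apoc1 at 2669 CPM (2419 to 2937), with a UMI in 76.6% of them. The 259 without any held 57.6 CPM (40.9 to 78.7), with a UMI in 12.0%, beside 51.7 CPM in T barcodes. In shSrsf10, 4 barcodes with at least 2 Kupffer gene UMIs held 2590 CPM (1707 to 3768), and 122 without any 20.7 CPM. Apoc2 was at 102 and 114 CPM and Apoc4 at 89.2 and 41.3 CPM in the shCtrl barcodes with and without Kupffer genes, and the intervals of each overlapped. Apoa2, at 146 (92.9 to 220) and 67.9 CPM (49.7 to 90.6), and Apoc3, at 63.7 (30.5 to 117) and 14.8 CPM (7.08 to 27.1), were higher with Kupffer genes, on 23 and 10 UMIs there. Apoe was high in both, at 14439 and 10937 CPM.

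**Figure D5:**
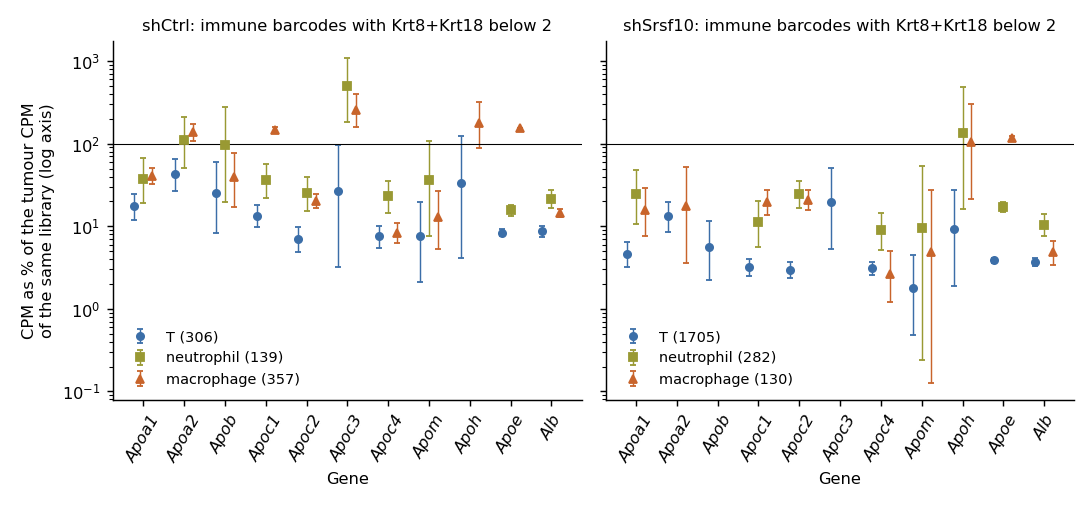
CPM in T, neutrophil and macrophage barcodes with fewer than 2 keratin UMIs as percent of the tumour CPM of the same library (log axis), for 9 apolipoproteins, Apoe and Alb, with exact intervals and the number of barcodes in brackets; genes without a UMI are not drawn. In shCtrl macrophages Apoc1 stands at 146% and Apoc4 at 8.36%, while in T barcodes they stand at 13.5% and 7.57%.

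Across thinned tumour barcodes, the genes whose counts most resembled the summed members were ranked by Spearman's rho, taking the lower of both libraries, among 3309 genes. They were Apoe (0.45), the fatty acid binding protein Fabp5 (0.40), Afp (0.39), the plasmin inhibitor Serpinf2 (0.38), transferrin Trf (0.36), the haem carrier Hpx (0.35), Ambp (0.30), the thyroid hormone carrier Ttr (0.295), Alb (0.27) and Ahsg (0.27). The median over the ranked genes was 0.02 in shCtrl and 0.00 in shSrsf10. All barcodes of a library share its preparation and free RNA, so these are descriptions over 6462 and 3765 barcodes. Within the members, the closest pair was Apoc1 with Apoc4, at 0.31 and 0.33, followed by Apoa1 with Apoc2, at 0.26 and 0.31. Apoa1 and Apoa2, although both concentrated in the same few barcodes, reached 0.10 in shCtrl and 0.17 in shSrsf10 over all tumour barcodes.

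Other genes of lipoprotein handling were read in the tumour barcodes by the same 1.5-fold rule, by which 11.3% of all genes were lower and 7.45% higher. Of 9 listed genes of assembly and secretion that could be measured, 0 differed by 1.5-fold and the median log2 ratio was -0.07. They include Mttp, which loads lipid onto Apob, at 30.7 and 24.5 CPM (-0.33), the cholesterol esterifying enzyme Soat2 (0.31), Cideb (-0.24) and the protein disulfide isomerase P4hb (-0.23). Among 7 measured genes of remodelling and efflux, 2 were lower and 1 higher: the phospholipid transfer protein Pltp at 0.48 and 0.13 CPM (-1.93), the cholesterol exporter Abca1 at 9.68 and 6.15 CPM (-0.66), and hepatic lipase Lipc at 0.54 and 1.09 CPM (1.02). Lcat, the enzyme that Apoa1 activates, was at 2.17 and 1.74 CPM (-0.32). Of 8 receptor and uptake genes 1 was lower, Vldlr (-0.61), while Sort1 (-0.55) and Lrp1 (-0.32) lay within 1.5-fold. Of 6 measured further apolipoproteins 2 were lower, Apoe and Apoa5 (-1.14), and 1 was higher, Apon (0.89, on 0.25 and 0.46 CPM), with Apof at 0.47.

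Of 20 measured transcription factors of liver genes, 3 were lower and 2 higher, beside 11.3% and 7.45% of all genes. Their median log2 ratio was -0.16, against -0.06 over all genes. Lower were Cebpb at 37.7 and 15.3 CPM (-1.30), Nr2f2 at 25.3 and 14.0 CPM (-0.85) and Prox1 at 24.7 and 15.2 CPM (-0.69). Higher were the bile acid responsive repressor Nr0b2 at 15.5 and 24.2 CPM (0.65) and the bile acid receptor Nr1h4 at 0.94 and 1.46 CPM (0.64). Hnf4a, a nuclear receptor that binds many apolipoprotein promoters, was at -0.56, and the forkhead factors Foxa2 and Foxa3 were at -0.21 and -0.11.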

How the data were processed

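Each library was deposited as a matrix of raw UMI counts, whole numbers without scaling, with Cell Ranger 6.1.0 as the tool and mm10 as the build, per the submitters' processing notes. Filters applied by the authors before deposition are not given in the sources used here. The lowest total per barcode was 500 UMIs, and the barcodes are 17 bases long. From the counts, UMIs were summed per library and barcode set and scaled to CPM of the set's total. CPM have exact Poisson intervals, ratios exact conditional binomial intervals and shares exact Clopper-Pearson intervals at 95%, which cover counting error only. With 1 library per group no p-value was computed, and features were named past 1.5-fold with at least 50 UMIs over both libraries. Thinning drew UMIs without replacement to 5000, 2000 or 1000 per barcode, leaving out shallower ones: 0 tumour barcodes, and 40 shCtrl and 71 shSrsf10 T barcodes with few keratin UMIs. The intervals were run on simulated Poisson counts for 13336 genes of the tumour comparison. For genes set to a 1.5-fold change 94.65% of intervals held the true ratio, and 4.617% of unchanged genes had intervals without 0. The intervals assume this same counting model, so the simulation covers their arithmetic only. It does not cover UMIs gathered in few barcodes.

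No doublets were removed in the values reported. As an alternative, the barcodes with the highest Scrublet scores (scanpy 1.11.5) were removed, 787 in shCtrl and 456 in shSrsf10, at 0.8% per 1000 barcodes. Of the tumour barcodes, 80 in shCtrl and 101 in shSrsf10 also met an immune rule and were kept. Python 3.11.15, numpy 2.4.6, scipy 1.17.1, pandas 2.3.3 and matplotlib 3.10.9 were used. Gene coordinates are from GENCODE vM21.

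The named genes were all 10 members, Srsf10, Apoe, Alb, the 4 largest ratios of each lipoprotein list and the 10 genes most like the summed members. One gene that this rule names is not reported here. Further list members, such as Nr1h4, Hnf4a and the forkhead factors, and the single barcodes were chosen after their values were seen, as was the split by Kupffer genes. The members, gene lists and rules were chosen with earlier results of these data known.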

Additional observations from a re-analysis of the deposited data

How the results depend on the processing

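The log2 ratio of the summed apolipoproteins between the libraries, -0.22, kept its direction under all alternatives run. It was -0.23 with the highest Scrublet scores removed, -0.17 as a mean of CPM per barcode, -0.24 without mitochondrial and ribosomal protein genes in the total and -0.16 with the median gene ratio as size factor, a shift of 0.06 for all genes. It was -0.32 within barcodes of at least 5 Tff2 UMIs and -0.19 in the rest. Chosen after seeing the data, it was -0.15 without the top 1% of barcodes by Apoa1 UMIs, -0.20 with T barcode RNA subtracted, -0.24 without the 2 barcodes with the most Apoa2 and -0.24 without tumour barcodes that meet an immune rule. The 4 members lower by 1.5-fold became 1 at 2-fold, 2 within the Tff2 barcodes and 1 without the top 1% by Apoa1. Among the alternative values for single members 2 reversed, 57 moved beyond counting error and 119 did not. The 2 were Apoa2, at 0.41 with at least 5 Tff2 UMIs, and Apoc1, at 0.10 with fewer. The Tff2 ratio of the sum, 0.13 in shCtrl, was 0.051 and 0.22 with a Tff2 minimum of 2 and 10 and 0.16 as a mean over barcodes. In shSrsf10, where it was 0.00, it was -0.19, -0.10 and -0.076. Apoa4, higher at 1.09, was at 0.08 without the barcode with the most Apoa4 in each library, also chosen after seeing the data. The causes were not tested. Apoa4 had too few UMIs for a ratio within the Tff2 barcodes and without the top 1% by Apoa1. No paired analysis was possible because each group is 1 library.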

Other observations

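In shCtrl macrophage barcodes with few keratin UMIs, Apoa2 was at 84.3 CPM, 139% (109 to 175) of its tumour CPM, Apoc3 at 22.8 CPM, 259% (158 to 402), and Apoh at 12.5 CPM, 180% (89.6 to 324). These values rest on 74, 20 and 11 UMIs, and the share of barcodes with Apoc3 was 5.32% against 4.63% of the deeper tumour barcodes. Apoc4 was at 8.36% and Alb at 14.5% there. Mup3, a urinary protein of mature hepatocytes, had 35 UMIs in these barcodes, 39.9 CPM against 0.78 CPM in tumour barcodes, while Cyp2e1 had 2 and Cps1 0. In shSrsf10 macrophage barcodes Mup3 had 2 UMIs, Apoa2 3 and Apoc3 0. Whether these belong together was not tested.

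The shSrsf10 tumour barcode with the most Apoc3 held 40 Mup3, 300 Fabp1 and 137 Apoa2 UMIs among 22764 UMIs, with 0 Afp and 14 Alb. The shSrsf10 barcode with 38 Apoa4 UMIs held 246 Apoa1, 35 Apoc3 and 218 Alb UMIs, and Fabp2, a gene of enterocytes, was at 0 in it. Over all tumour barcodes the listed enterocyte genes were at 46.2 and 41.7 CPM (Vil1), 8.97 and 6.18 CPM (Fabp2) and 0.31 and 0.27 CPM (Alpi). These barcodes were chosen after their values were seen.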
